A study of Arabidopsis thaliana with 24 samples.

Results

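The comparison described here is the genotype by time interaction over the first 6 h of seed imbibition in Arabidopsis thaliana. It asks, gene by gene, whether the change from 0 h to 6 h in the mutant ref6c differed from the change in the wild type Col. The value is (ref6c 6 h minus ref6c 0 h) minus (Col 6 h minus Col 0 h) on log2(TPM + 1), where TPM is transcript abundance scaled by gene length and by the library's total. It uses 12 of the 24 libraries of the series, 3 in each of 4 groups. Of 23826 genes in the table, 15873 reached 1 TPM in 3 or more of these 12 libraries and were tested. The groups were seeds of Col, labelled wild type, and of ref6c, each collected at 0 h and at 6 h of imbibition. All were after-ripened seeds sown on MS medium under long days. The growth note of every sample names ref6-1;REF6-HA seeds, whatever its genotype label, and the labels do not say what kind of allele ref6c is. Whole seeds were used, so fewer cells of a type and less RNA per cell cannot be told apart. Nothing states that the 3 libraries of a group came from separate seed batches, so p-values measure the spread between these libraries.

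REF6 is a Jumonji enzyme that erases H3K27me3, a chromatin mark tied to gene silencing, and it is guided to DNA in part by its zinc fingers. Polycomb complexes write that mark, and many genes silent in the dry seed carry it. The dry seed holds a store of transcripts made during maturation, such as those of storage proteins, late embryogenesis abundant (LEA) proteins and small heat shock proteins. On imbibition these stored transcripts are lost while genes of protein synthesis, cell wall loosening and reserve use are turned on. The study's title places REF6 and the loss of H3K27me3 in gene activation at germination, and the interaction addresses whether the first step of that programme runs to the same extent in both genotypes.

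Upstream sequences of some genes named in the results are shown here, since those of neighbouring IGMT genes can be compared by eye and since they hold motifs that were searched for. Each is the 250 bases before the gene start in RefSeq annotation of TAIR10.1, read 5′ to 3′ on the gene's own strand, which is the minus strand for all those shown. IGMT4, IGMT2 and IGMT3 encode methyltransferases that act on indole glucosinolates. The stretches lie at chr1:7400737-7400986 for IGMT4, chr1:7396824-7397073 for IGMT2 and chr1:7391604-7391853 for IGMT3. CYP83B1, at chr4:15275405-15275654, encodes a P450 of the indole glucosinolate core pathway, and HAI2, at chr1:2282829-2283078, a phosphatase that opposes abscisic acid signalling. Capitals mark a REF6 zinc-finger motif (CTCTGCTT) in IGMT4 and the core of the abscisic acid response element (ACGTG, or CACGT on the other strand) in the others. HAI2 holds several cores, a pair of which adjoin, and IGMT2 holds a pair apart from each other.
IGMT4: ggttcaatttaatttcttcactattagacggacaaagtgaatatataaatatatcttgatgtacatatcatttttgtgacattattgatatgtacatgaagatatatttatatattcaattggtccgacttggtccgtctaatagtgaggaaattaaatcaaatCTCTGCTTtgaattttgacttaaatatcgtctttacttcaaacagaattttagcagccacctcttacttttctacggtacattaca
IGMT2: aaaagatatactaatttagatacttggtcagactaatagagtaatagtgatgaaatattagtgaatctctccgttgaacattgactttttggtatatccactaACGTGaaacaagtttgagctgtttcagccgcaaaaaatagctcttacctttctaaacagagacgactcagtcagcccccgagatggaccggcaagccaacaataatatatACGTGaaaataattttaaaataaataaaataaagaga
IGMT3: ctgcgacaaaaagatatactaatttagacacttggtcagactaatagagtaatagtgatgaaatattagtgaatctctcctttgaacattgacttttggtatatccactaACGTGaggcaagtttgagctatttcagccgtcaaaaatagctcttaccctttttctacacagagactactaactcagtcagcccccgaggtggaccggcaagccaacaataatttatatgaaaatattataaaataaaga
CYP83B1: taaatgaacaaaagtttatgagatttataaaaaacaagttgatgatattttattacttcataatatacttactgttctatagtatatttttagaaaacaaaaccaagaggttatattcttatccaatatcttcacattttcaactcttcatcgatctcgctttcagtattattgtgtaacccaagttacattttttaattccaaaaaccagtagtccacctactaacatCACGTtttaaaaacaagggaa
HAI2: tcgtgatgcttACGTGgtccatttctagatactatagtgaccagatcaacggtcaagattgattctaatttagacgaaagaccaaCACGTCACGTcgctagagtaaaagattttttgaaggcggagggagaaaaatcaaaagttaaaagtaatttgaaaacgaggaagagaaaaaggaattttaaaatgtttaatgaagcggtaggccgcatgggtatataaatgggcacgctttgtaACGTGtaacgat
HSP21, a small heat shock protein of plastids, and AT1G52560, annotated as an HSP20-like chaperone, have their stretches at chr4:13819972-13820221 and chr1:19575867-19576116. Capitals mark a heat shock element core (GAANNTTC, where N is any base).
HSP21: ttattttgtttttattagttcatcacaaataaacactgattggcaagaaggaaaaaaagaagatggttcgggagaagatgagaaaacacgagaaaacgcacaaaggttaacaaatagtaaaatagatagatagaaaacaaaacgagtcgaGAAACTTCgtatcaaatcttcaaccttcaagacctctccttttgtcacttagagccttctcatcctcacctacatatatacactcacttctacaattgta
AT1G52560: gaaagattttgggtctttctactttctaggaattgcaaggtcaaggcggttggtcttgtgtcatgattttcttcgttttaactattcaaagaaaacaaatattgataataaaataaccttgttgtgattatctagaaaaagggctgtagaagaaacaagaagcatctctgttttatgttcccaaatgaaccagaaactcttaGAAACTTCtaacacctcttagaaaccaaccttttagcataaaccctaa

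The 12 libraries held 16625456 to 19153489 reads each, as recovered from the TPM steps. Replicate 1 of ref6c at 0 h stood apart from the other replicates of its group, with a median log2 difference of 0.18 over genes and an SD of 0.30. No other library had an SD above 0.23. Storage and oil body genes took 18.7% to 19.2% of TPM in Col and 16.4% to 17.1% in ref6c at 0 h, and 5.84% to 6.88% in both at 6 h. REF6 itself (AT3G48430) read 1.09, 1.46 and 0.935 TPM in Col at 0 h and 35.1, 32.5 and 39.8 TPM at 6 h, against 0.563, 0.221 and 0.267 TPM in ref6c at 0 h and 14.4, 13.5 and 15.3 TPM at 6 h. REF6 was below Col in every ref6c library at both times. Its interaction was -0.58 ± 0.18 (SE, n = 3 libraries a group, adjusted p = 0.071), and the sign turned to 0.23 with a pseudocount of 0.1. ELF6, the closest relative of REF6, read 6.91, 6.48 and 4.51 TPM in Col at 0 h and 11.4, 12.2 and 15.9 TPM at 6 h, against 7.51, 3.74 and 3.98 TPM in ref6c at 0 h and 12, 12.4 and 13.9 TPM at 6 h. ELF6 overlapped between genotypes at both times, with an interaction of 0.21 ± 0.29 (adjusted p = 0.75).

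The change from 0 h to 6 h differed between the genotypes for 1208 genes. It was called higher in ref6c for 762 genes, 4.8% of those tested, and lower for 446 genes, 2.81%. Calls are limma tests at a Benjamini-Hochberg adjusted p under 0.05 over all genes tested, two-sided, with no fold minimum. A pseudocount of 0.1 gave 546 higher and 143 lower, and voom on reads recovered from the TPM values gave 614 higher and 89 lower, so the number called lower changed most with the scale. Without replicate 1 of ref6c at 0 h the calls came to 2664 higher and 643 lower. Without Col 0 h replicate 2 there were 492 higher and 356 lower, and without Col 6 h replicate 1, 2 or 3 the lower calls came to 236, 249 and 269. The median interaction over all genes tested was 0.08.

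Most genes changed their share of the library in both genotypes over this step. In Col 82.1% of genes were called higher and 10.9% lower at 6 h than at 0 h, and in ref6c 84% were called higher and 9.59% lower. The median step was 1.49 in Col and 1.55 in ref6c on log2(TPM + 1). It was 0.10 in both after median-of-ratios scaling, so a gene described as rising did so relative to the library total. Between genotypes at 0 h, 1.7% of genes were called higher and 8.22% lower in ref6c. At 6 h the shares were 6.07% higher and 9.17% lower. These 4 comparisons share libraries with the interaction and are given to show where it came from.

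Among the 762 genes called higher, 391 rose in both genotypes, with the larger rise in ref6c, and 206 fell in both, with the smaller fall in ref6c. A further 74 rose in ref6c with no call in Col, 52 fell in Col with no call in ref6c, and 39 fell in Col and rose in ref6c. Since the scale shifts all steps, 6 of these 39 also fell in Col and rose in ref6c after median-of-ratios scaling, while the interaction was still called higher for 34. Set out by time, 365 of the 762 had no genotype call at 0 h and were higher in ref6c at 6 h. Another 219 were lower in ref6c at 0 h with no call at 6 h, and 71 were lower at 0 h and higher at 6 h. Among the 446 genes called lower, 371 rose in both genotypes, 45 rose in Col with no call in ref6c, and 3 rose in Col and fell in ref6c, none of which did so after that scaling. Of these 446, 338 had no genotype call at 0 h and were lower in ref6c at 6 h.

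**Figure D1:**
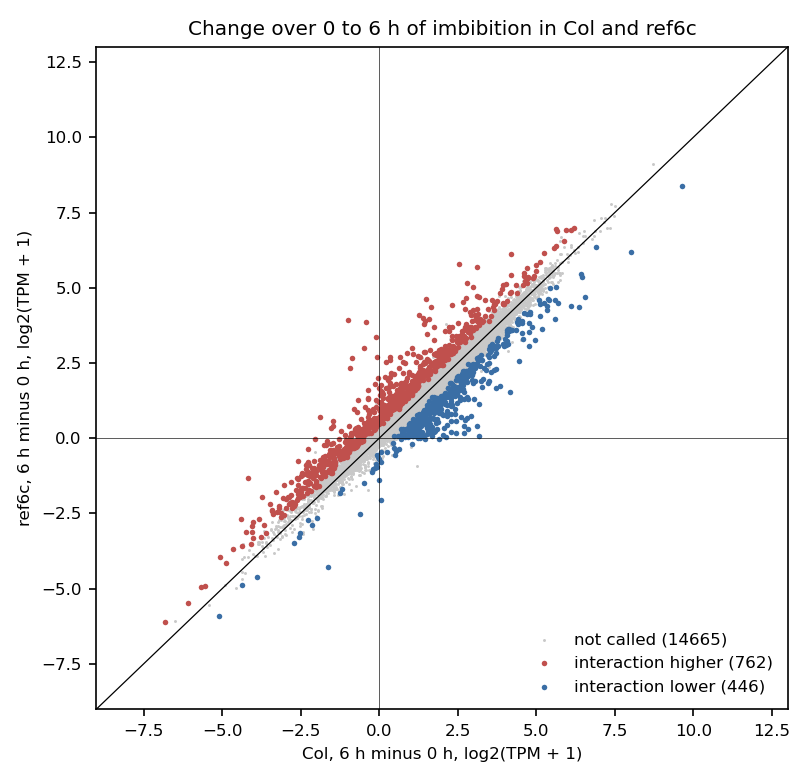
Each point is a gene, with its 0 to 6 h change in Col on the x axis and in ref6c on the y axis, both on log2(TPM + 1); grey points were not called, red points are the 762 genes called higher and blue points the 446 called lower. Genes called higher lie above the diagonal from strongly falling to strongly rising genes, and most genes called lower lie below it at positive changes.

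Many genes called lower entered the test through Col at 6 h. For 114 of the 446 (25.6%) the 3 Col libraries at 6 h were the only ones at 1 TPM or more, so the filter itself set their low level elsewhere, against 141 of all genes tested. These 114 are untested when a Col library at 6 h is left out. Of the 762 called higher, 24 were at 1 TPM or more only in the 3 ref6c libraries at 6 h, beside 30 of all genes tested. Another 18 were so only in the 3 Col libraries at 0 h, beside 21 of all genes tested. Of the 446, 332 (74.4%) had a mean below 1 TPM at 0 h in both genotypes, against 121 of the 762 called higher (15.9%) and 20.6% of all genes tested. For such genes the interaction on log2(TPM + 1) is close to the difference in level at 6 h. A fold change from 0 h cannot be measured well there. With voom 79 of the 446 were also called lower, and 69 had the opposite sign. With a pseudocount of 0.1 139 were also called lower and 18 had the opposite sign. Of the 762 genes called higher, 519 were also called higher by voom and 519 with a pseudocount of 0.1, and 7 and 1 had the opposite sign.

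Genes of indole glucosinolate synthesis rose more in ref6c than in Col. These make defence compounds from tryptophan and sulfur in Brassicaceae. Of 16 members tested, 13 were called higher and none lower, beside 4.8% and 2.81% of all genes, and the list's median interaction was 1.37 beside 0.08 over all genes. With voom 10 were called higher and none lower. IGMT1, IGMT2 and IGMT3 entered the test through ref6c at 6 h, the only group where they reached 1 TPM. IGMT4 (AT1G21130, chr1:7398814-7400736) read 4.42, 3.27 and 1.78 TPM in Col at 0 h and 0.909, 1.38 and 0.779 TPM at 6 h, against 0.639, 0.478 and 0.342 TPM in ref6c at 0 h and 23.4, 23.2 and 18.4 TPM at 6 h. It fell in Col and rose in ref6c, and the genotypes did not overlap at either time, with Col above at 0 h and ref6c above at 6 h. Its interaction was 4.92 ± 0.28 (SE, n = 3 libraries a group, adjusted p = 6.5e-08), the largest of all genes tested.

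IGMT2 (AT1G21120) read 0.683, 0.58 and 0.37 TPM in Col at 0 h and 0.133, 0.134 and 0.0701 TPM at 6 h, against 0 TPM in all 3 libraries of ref6c at 0 h and 7.52, 8.1 and 5.54 TPM at 6 h. No read was listed for it in any ref6c library at 0 h, and every ref6c library was above every Col library at 6 h. Its interaction was 3.46 ± 0.17 (adjusted p = 5.7e-08). IGMT3 (AT1G21110) read 0.247, 0.147 and 0.281 TPM in Col at 0 h and 0.337, 0.204 and 0 TPM at 6 h, against 0 TPM in all 3 libraries of ref6c at 0 h and 4.88, 7.88 and 4.23 TPM at 6 h. It was also listed at 0 in ref6c at 0 h, and its interaction was 2.76 ± 0.23 (adjusted p = 2.5e-06). IGMT1 (AT1G21100) had an interaction of 1.94 (adjusted p = 5e-05), with group means of 0.525 and 0.194 TPM in Col and 0.0906 and 2.35 TPM in ref6c at 0 and 6 h. These neighbouring genes are close copies. IGMT1, IGMT3 and IGMT4 share 93% to 93.4% of coding bases and IGMT2 82% to 86.3% with them, so the split of reads among them is uncertain. IGMT5 (AT1G76790), on another part of the chromosome and 73.2% identical to IGMT1, was not called, at -0.27 (adjusted p = 0.28), and that sign turned with a pseudocount of 0.1.

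Enzymes upstream of the methylation step moved the same way. CYP83B1 (AT4G31500), which oxidises indole acetaldoxime, read 0.844, 0.638 and 0.687 TPM in Col at 0 h and 11.2, 10.3 and 10.6 TPM at 6 h, against 0.123, 0.0768 and 0 TPM in ref6c at 0 h and 27.5, 25.6 and 24.6 TPM at 6 h. Col was above ref6c at 0 h and ref6c above Col at 6 h, without overlap, and the interaction was 1.89 ± 0.14 (adjusted p = 9.3e-07). GSTF9 (AT2G30860), a glutathione transferase listed with the pathway, read 108 to 126 TPM in Col at 0 h and 126 to 164 TPM at 6 h, against 84.6 to 93.2 TPM in ref6c at 0 h and 341 to 371 TPM at 6 h. Again the order of the genotypes turned without overlap, and the interaction was 1.69 ± 0.14 (adjusted p = 2.5e-06). The sulfotransferase SOT16, which makes the last core step, went from a mean of 6.29 to 45.1 TPM in Col and from 7.11 to 185 TPM in ref6c, an interaction of 1.85 (adjusted p = 8.9e-05). GGP1, a peptidase that trims the glutathione conjugate, fell from a mean of 10.2 to 7.71 TPM in Col and rose from 6.49 to 17.9 TPM in ref6c, an interaction of 1.71 (adjusted p = 2.8e-05). After median-of-ratios scaling GGP1 fell in both, and less in ref6c. The C-S lyase SUR1 had 0.83 (adjusted p = 0.0025), the glucosyltransferase UGT74B1 0.81 (adjusted p = 0.0041), and CYP81F2, which hydroxylates the finished product, 1.04 (adjusted p = 0.0016), not called with voom. Of the MYB factors that drive the pathway, MYB51 was called higher at 0.72 (adjusted p = 0.00086), though not with voom, and MYB34 was not, at 0.55 (adjusted p = 0.09).

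Sulfate assimilation, which supplies the sulfur for these compounds, had 8 of 16 members called higher and none lower. That stood beside 4.8% and 2.81% of all genes, and the list's median was 0.58. APR1 (AT4G04610), the reductase that commits sulfate to cysteine, read 2.64, 2.51 and 2.19 TPM in Col at 0 h and 5.8, 6.86 and 7.75 TPM at 6 h, against 3.75, 3.05 and 5.22 TPM in ref6c at 0 h and 27.4, 29.9 and 25.5 TPM at 6 h. The ref6c libraries were above Col at both times and further apart at 6 h, with an interaction of 1.36 ± 0.21 (adjusted p = 0.00067). AKN2 (AT4G39940), a kinase that makes the sulfate donor for sulfotransferases, read 0.16, 0.0792 and 0.0379 TPM in Col at 0 h and 0.0545, 0.275 and 0.115 TPM at 6 h, against 0 TPM in all 3 libraries of ref6c at 0 h and 2.5, 2.92 and 1.85 TPM at 6 h. It was listed at 0 in ref6c at 0 h and rose in ref6c without a call in Col, with an interaction of 1.69 ± 0.16 (adjusted p = 8.6e-06). AKN2 also entered the test only through ref6c at 6 h. APS1 (AT3G22890), an ATP sulfurylase, had a mean of 58.2 ± 2.3 TPM (SD, n = 3) in Col at 0 h and 94.6 ± 4.1 TPM at 6 h, and of 51.2 ± 8.76 TPM in ref6c at 0 h and 184 ± 5.58 TPM at 6 h. It overlapped at 0 h and ref6c was above at 6 h, with an interaction of 1.15 ± 0.14 (adjusted p = 0.00011). APR2 at 0.97 (adjusted p = 0.00097), APS3 at 0.93 (adjusted p = 0.00037), the kinase APK at 0.67 (adjusted p = 0.0065) and the transporter SULTR1;2 at 0.75 (adjusted p = 0.026) were also called, SULTR1;2 in 5 of the 12 fits that each left out a library. For APR2 and SULTR1;2 the genotype difference was at 0 h, and their ref6c minus Col differences at 6 h were 0.09 (adjusted p = 0.67) and 0.02 (adjusted p = 0.94).

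Several other genes with the largest higher calls encode transporters, detoxifying enzymes and stress regulators. PEN3 (AT1G59870), an ABC transporter linked to export of indole compounds in defence, read 2.88, 2.69 and 1.83 TPM in Col at 0 h and 6.34, 6.75 and 8.81 TPM at 6 h, against 0.676, 0.255 and 0.36 TPM in ref6c at 0 h and 24.4, 24.1 and 21.8 TPM at 6 h. The order turned from Col above to ref6c above without overlap, and the interaction was 2.84 ± 0.21 (adjusted p = 1e-06). GSTU12 (AT1G69920), a tau glutathione transferase, read 1.1, 0.748 and 0.441 TPM in Col at 0 h and 0.791, 0.56 and 0.501 TPM at 6 h, against 0.178, 0.0555 and 0 TPM in ref6c at 0 h and 10.9, 10.4 and 8.63 TPM at 6 h. It had no call in Col and rose in ref6c, with an interaction of 3.46 ± 0.19 (adjusted p = 5.7e-08). DIN2 (AT3G60140), a beta-glucosidase known as dark inducible, read 1.59, 1.67 and 1.39 TPM in Col at 0 h and 6.61, 6.7 and 7.48 TPM at 6 h, against 1.13, 0.877 and 0.977 TPM in ref6c at 0 h and 40.8, 37.9 and 41.8 TPM at 6 h. It rose in both and more in ref6c, with an interaction of 2.73 ± 0.14 (adjusted p = 5.7e-08). BCB, a blue copper protein, had 2.59 ± 0.17 (adjusted p = 3.7e-07), the NAC factor NAC042 had 2.32 ± 0.23 (adjusted p = 1.2e-05), and CCL, a transcript known to be under circadian control of its stability, had 2.05 ± 0.20 (adjusted p = 1.4e-05). The ref6c libraries lay above Col at 6 h for BCB, NAC042 and CCL, while at 0 h the genotypes overlapped. NAC042 reached 1 TPM only in the ref6c libraries at 6 h.

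GSTF6 and WRKY33 differed in another way: they were lower in ref6c at 0 h and reached Col or came near it at 6 h. GSTF6 (AT1G02930), a phi glutathione transferase, read 88.1, 43.1 and 51.2 TPM in Col at 0 h and 525, 474 and 528 TPM at 6 h, against 7.86, 14.4 and 3.25 TPM in ref6c at 0 h and 434, 405 and 442 TPM at 6 h. All Col libraries were above ref6c at both times, and the interaction was 2.57 ± 0.47 (adjusted p = 0.0033). WRKY33 (AT2G38470), a regulator of camalexin synthesis, read 10.7, 5.37 and 4.21 TPM in Col at 0 h and 7.64, 8.33 and 8.79 TPM at 6 h, against 2.82, 1.18 and 1.33 TPM in ref6c at 0 h and 9.68, 9.72 and 10.5 TPM at 6 h. Col was above at 0 h and ref6c at 6 h, with an interaction of 1.69 ± 0.35 (adjusted p = 0.0075). Of 7 tested genes in the list of early touch and wound factors, 2 were called higher, WRKY33 and ERF6, and 1 lower, RHL41, a zinc finger factor of stress responses. ERF6 had an interaction of 0.83 ± 0.18 (adjusted p = 0.011). RHL41 read 3.92, 5.67 and 3.73 TPM in Col at 0 h and 8.25, 5.4 and 6.23 TPM at 6 h, against 7.77, 7.11 and 8.96 TPM in ref6c at 0 h and 5.34, 4.53 and 5.16 TPM at 6 h. It rose in Col and fell in ref6c on TPM, and fell in both after median-of-ratios scaling, with an interaction of -1.06 ± 0.22 (adjusted p = 0.0074).

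Some families were looked at after their values were seen. Of 12 tested genes of the FAD-binding Berberine family, 7 were called higher and none lower, with a median of 0.90. Of all genes tested 4.8% were called higher and 2.81% lower. AT1G26380 read 2.01, 1.08 and 0.665 TPM in Col at 0 h and 0.0597, 0.181 and 0.441 TPM at 6 h, against 0.134, 0.126 and 0.0448 TPM in ref6c at 0 h and 6.14, 6.98 and 5.09 TPM at 6 h. It fell in Col and rose in ref6c, with an interaction of 3.52 ± 0.25 (adjusted p = 8.1e-07). Its neighbours AT1G26410 and AT1G26420 had 3.26 ± 0.29 (adjusted p = 6e-06) and 2.37 ± 0.21 (adjusted p = 5.3e-06), and AT1G26400 had 1.06 (adjusted p = 0.0056). Phi glutathione transferases had 4 of 6 called higher, with a median of 1.34, and tau ones 4 of 16, with a median of 0.22. Among genes without a symbol, AT1G55450, annotated as a methyltransferase, had 4.28 ± 0.22 (adjusted p = 5.7e-08), and AT2G43590, annotated as a chitinase, had 3.13 ± 0.17 (adjusted p = 5.7e-08). AT2G43590 read 71, 99 and 95.8 TPM in Col at 0 h and 227, 239 and 284 TPM at 6 h, against 23.7, 27.9 and 24.4 TPM in ref6c at 0 h and 670, 621 and 651 TPM at 6 h. Both genotypes rose, from a lower level at 0 h to a higher one at 6 h in ref6c.

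**Figure D2:**
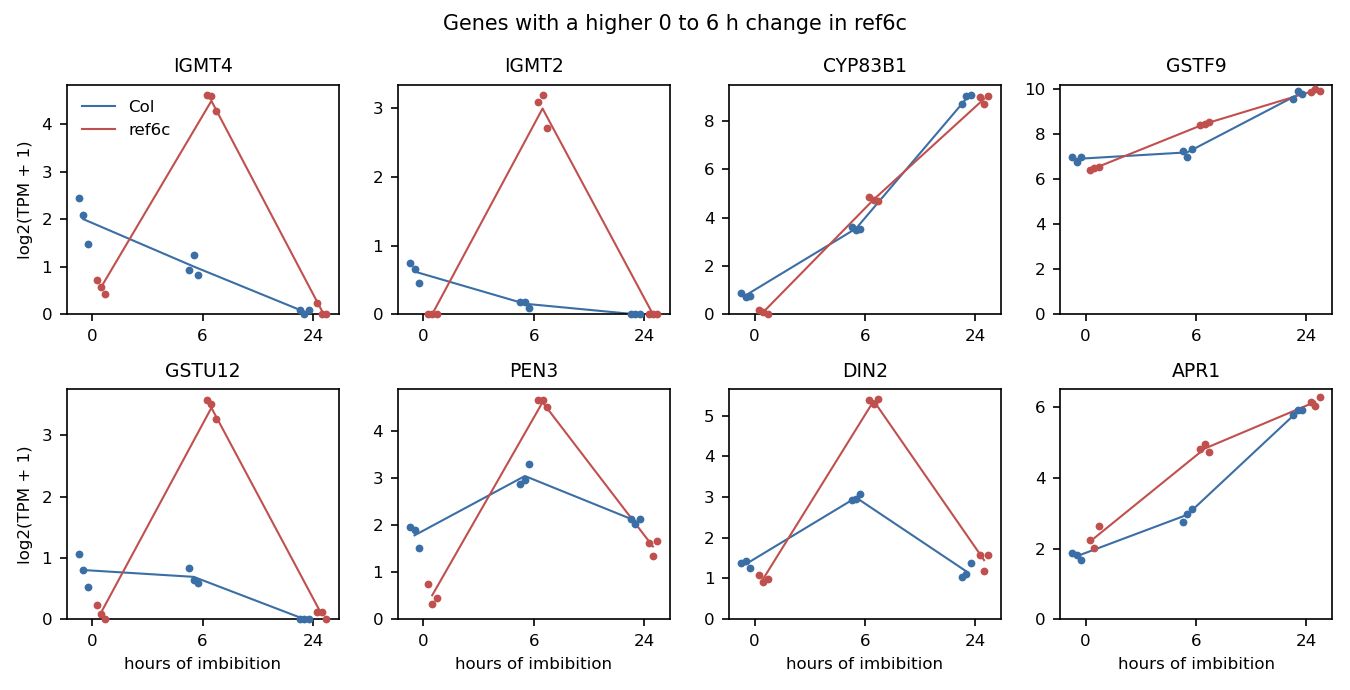
Points are single libraries on log2(TPM + 1) at 0, 6 and 24 h of imbibition, 3 per genotype and time, and lines join the group means of Col (blue) and ref6c (red). For IGMT4, IGMT2, GSTU12, PEN3 and DIN2 the ref6c level peaked at 6 h, and at 24 h the group means of CYP83B1 were 487 TPM in Col and 483 TPM in ref6c.

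The 24 h libraries were not used by the interaction, and the genotypes were compared there for the same genes after the 0 and 6 h results were known. At 24 h 15.6% of all genes tested were called higher and 23.2% lower in ref6c. Of the 449 genes called higher in the interaction and higher in ref6c at 6 h, 169 (37.6%) were higher and 63 (14%) were lower at 24 h. Of all 762 called higher, 29.4% were higher and 17.7% lower, and of the 330 that were lower in ref6c at 0 h, 60 were higher and 82 lower. The ref6c minus Col difference at 24 h was 0.02 ± 0.10 (adjusted p = 0.89) for IGMT4, 0.07 ± 0.18 (adjusted p = 0.79) for GSTU12 and -0.01 ± 0.12 (adjusted p = 0.95) for CYP83B1. IGMT2 was listed at 0 in all 6 libraries at 24 h. DIN2 had 0.28 ± 0.12 (adjusted p = 0.084) and PEN3, lower in ref6c at that time, had -0.55 ± 0.12 (adjusted p = 0.0033). AKN2 turned to lower in ref6c, with -1.17 ± 0.11 (adjusted p = 1.9e-05), while APR1 and CCL were higher, with 0.28 ± 0.09 (adjusted p = 0.023) and 1.58 ± 0.22 (adjusted p = 0.00021).

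Stored transcripts of chaperones fell less in ref6c. Heat shock chaperones hold proteins in shape in the dry state and are made in quantity late in seed maturation. Of 18 members, 10 were called higher and 1 lower, beside 4.8% and 2.81% of all genes. Their median was 0.54, beside 0.08 over all genes. HSP21 (AT4G27670) read 39.4, 42.2 and 38 TPM in Col at 0 h and 0.667, 2.12 and 1.21 TPM at 6 h, against 2.22, 2.74 and 1.72 TPM in ref6c at 0 h and 0.194, 0.378 and 0.294 TPM at 6 h. Col was above ref6c at both times without overlap. The interaction was 2.87 ± 0.26 (adjusted p = 5.8e-06). HSP23.6-MITO, in mitochondria, read 408, 463 and 483 TPM in Col at 0 h and 105, 103 and 108 TPM at 6 h, against 91.5, 116 and 106 TPM in ref6c at 0 h and 60.3, 61.5 and 61 TPM at 6 h. Col was again above at both times, with an interaction of 1.32 ± 0.13 (adjusted p = 1.1e-05). ATHSP22.0, of the endoplasmic reticulum, had 0.85 ± 0.10 (adjusted p = 0.0001), with a mean of 244 ± 4.04 TPM (SD, n = 3) in Col and 43.6 ± 2.25 TPM in ref6c at 0 h and 120 ± 4.29 and 38.8 ± 2.38 TPM at 6 h.

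For AT1G52560 and HSP17.6A the ref6c libraries were above Col at 6 h. AT1G52560 read 420, 485 and 487 TPM in Col at 0 h and 36, 34.4 and 31.8 TPM at 6 h, against 319, 334 and 347 TPM in ref6c at 0 h and 86.1, 90 and 82.8 TPM at 6 h. Its libraries in ref6c were below Col at 0 h and above it at 6 h, with an interaction of 1.79 ± 0.11 (adjusted p = 2.1e-07). HSP17.6A (AT5G12030), a cytosolic small heat shock protein, read 16380, 17601 and 18398 TPM in Col at 0 h and 570, 632 and 564 TPM at 6 h, against 16561, 21626 and 20646 TPM in ref6c at 0 h and 1101, 1107 and 1089 TPM at 6 h. The genotypes overlapped at 0 h and ref6c was above at 6 h, with an interaction of 0.74 ± 0.13 (adjusted p = 0.0028), not called after median-of-ratios scaling (0.59, adjusted p = 0.21). HSP101, a disaggregase, had an interaction of 1.01 (adjusted p = 0.019), called in 8 of the 12 fits that each left out a library. The member called lower was AT1G07400, at -0.74 (adjusted p = 0.015). HSFA9, the heat shock factor active in maturing seeds, read 419, 439 and 413 TPM in Col at 0 h and 10.9, 13.4 and 10.8 TPM at 6 h, against 367, 276 and 293 TPM in ref6c at 0 h and 18.8, 18.3 and 20.3 TPM at 6 h. Its interaction was 1.12 ± 0.15 (adjusted p = 0.00026). Of the 17 heat shock factors tested, HSFA9 and HSFA1E were the 2 called higher, HSFA1E in 2 of 12 fits that each left out a library.

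Some reserve transcripts were also called higher. Of 16 storage protein and oil body genes, 5 were called higher and none lower, with a median of 0.25, or 0.09 after median-of-ratios scaling. HSD1 (AT5G50600), a steroleosin of oil bodies, read 376, 313 and 340 TPM in Col at 0 h and 17.5, 19.5 and 24 TPM at 6 h, against 287, 298 and 276 TPM in ref6c at 0 h and 41.3, 42.8 and 39.2 TPM at 6 h. It fell in both and was above Col in all ref6c libraries at 6 h, with an interaction of 1.25 ± 0.15 (adjusted p = 7e-05). The reference gives the same symbol to a second locus, AT5G50700, at 2.24 TPM or less on average, so reads may be split between them. ATPXG2, a caleosin, had 0.48 ± 0.10 (adjusted p = 0.008) and the LEA protein M17 0.56 ± 0.11 (adjusted p = 0.0052). The cruciferins CRU3 and CRA1 had 0.81 ± 0.20 (adjusted p = 0.023) and 0.61 ± 0.18 (adjusted p = 0.049), called in 6 and 3 of the 12 fits that each left out a library. CRU3 had no call in Col, with means of 6006 TPM at 0 h and 5310 TPM at 6 h. In ref6c CRU3 rose from 3274 to 4967 TPM. Its genotype difference was thus at 0 h, and at 6 h it was -0.09 (adjusted p = 0.76). LEA proteins and dehydrins had 2 of 18 called higher and 1 lower, with a median of -0.00. Aquaporins of the protein storage vacuole, TIP3;1 and BETA-TIP, had 0.46 ± 0.12 (adjusted p = 0.028), called in 5 of the 12 fits that each left out a library, and 0.61 ± 0.13 (adjusted p = 0.01), and XTH25, abundant in the dry seed, 0.63 ± 0.13 (adjusted p = 0.0076). AT1G68250, at 15814 to 40262 TPM in these libraries, had 0.47 ± 0.12 (adjusted p = 0.022), called in 5 of the 12 fits. After median-of-ratios scaling ATPXG2, M17, CRU3, CRA1, TIP3;1, XTH25 and AT1G68250 were not called.

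The summed level of 8 dry seed markers was 82922 to 84502 TPM in Col and 78864 to 84776 TPM in ref6c at 0 h. At 6 h it was 28104 to 32448 TPM in Col and 32948 to 36221 TPM in ref6c, higher in ref6c by a narrow gap. Summed chaperones were also higher in ref6c at 6 h, at 4143 to 4248 TPM against 3195 to 3380 TPM in Col. The sum of the 16 storage and oil body genes overlapped at 6 h, at 59914 to 68777 TPM in Col and 58401 to 62411 TPM in ref6c. Of the 8 markers 2 were called higher and none lower. The summed level of 5 pollen markers was 34.3 to 42.5 TPM in Col and 19.5 to 24.1 TPM in ref6c at 0 h, and 16.9 to 23.7 and 15.6 to 16.7 TPM at 6 h. It was lower in ref6c at 0 h. VGD1, which was called higher, entered the test only through Col at 0 h. At that time VGD1 had 1.1 to 3.05 TPM in Col and 0.14 to 0.699 TPM in ref6c. The part of either marker set in the results was not tested. Summed endosperm markers overlapped between genotypes at both times. The summed level of 4 epidermis markers was 14.3 to 18.9 TPM in Col and 13 to 21.2 TPM in ref6c at 0 h. At 6 h it was 124 to 149 TPM in Col and 96 to 96.6 TPM in ref6c, lower in ref6c without overlap, in the direction of the genes called lower. The median interaction of these markers was -0.59, LP1 was called lower, and PDF1 had -1.12 (adjusted p = 0.057). ATML1 and PDF2 were not called, at 0.05 (adjusted p = 0.94) and -0.07 (adjusted p = 0.87). The part of these markers in the lower calls was not tested.

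Other genes were higher in dry Col seeds than in dry ref6c seeds and fell further in Col. AMT1;1, an ammonium transporter, read 40, 37.9 and 30.4 TPM in Col at 0 h and 6.8, 6.71 and 6.73 TPM at 6 h, against 12.3, 7.64 and 8.15 TPM in ref6c at 0 h and 7.14, 6.64 and 6.99 TPM at 6 h. The genotypes overlapped at 6 h, and the interaction was 1.89 ± 0.21 (adjusted p = 3.3e-05). CYP81D8, a P450 of stress responses, read 65.3, 64.7 and 60 TPM in Col at 0 h and 6.93, 11.1 and 12.2 TPM at 6 h, against 9.08, 5.7 and 6.64 TPM in ref6c at 0 h and 3.61, 3.46 and 4.26 TPM at 6 h. It fell in both, and Col was above at both times, with an interaction of 1.82 ± 0.25 (adjusted p = 0.00028). AR781 and SCRL26 fell in Col with no call in ref6c, with interactions of 2.03 ± 0.18 (adjusted p = 4.5e-06) and 1.54 ± 0.22 (adjusted p = 0.00047). CAM9, a calmodulin relative, fell in Col from 18.6, 18.5 and 23 to 6.53, 5.82 and 7.36 TPM with no call in ref6c, which read 13.2, 15 and 14.4 TPM at 0 h and 12.4, 13.3 and 11.8 TPM at 6 h (interaction adjusted p = 7.9e-05). The ref6c libraries of CAM9 were below Col at 0 h and above it at 6 h. CYP71B3 fell in Col from a mean of 27.2 to 6.74 TPM and rose in ref6c from 0.296 to 1.14 TPM, with an interaction of 2.59 ± 0.16 (adjusted p = 1.3e-07). After median-of-ratios scaling CYP71B3 had no call in ref6c. Col was above ref6c for CYP71B3 at both times.

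**Figure D3:**
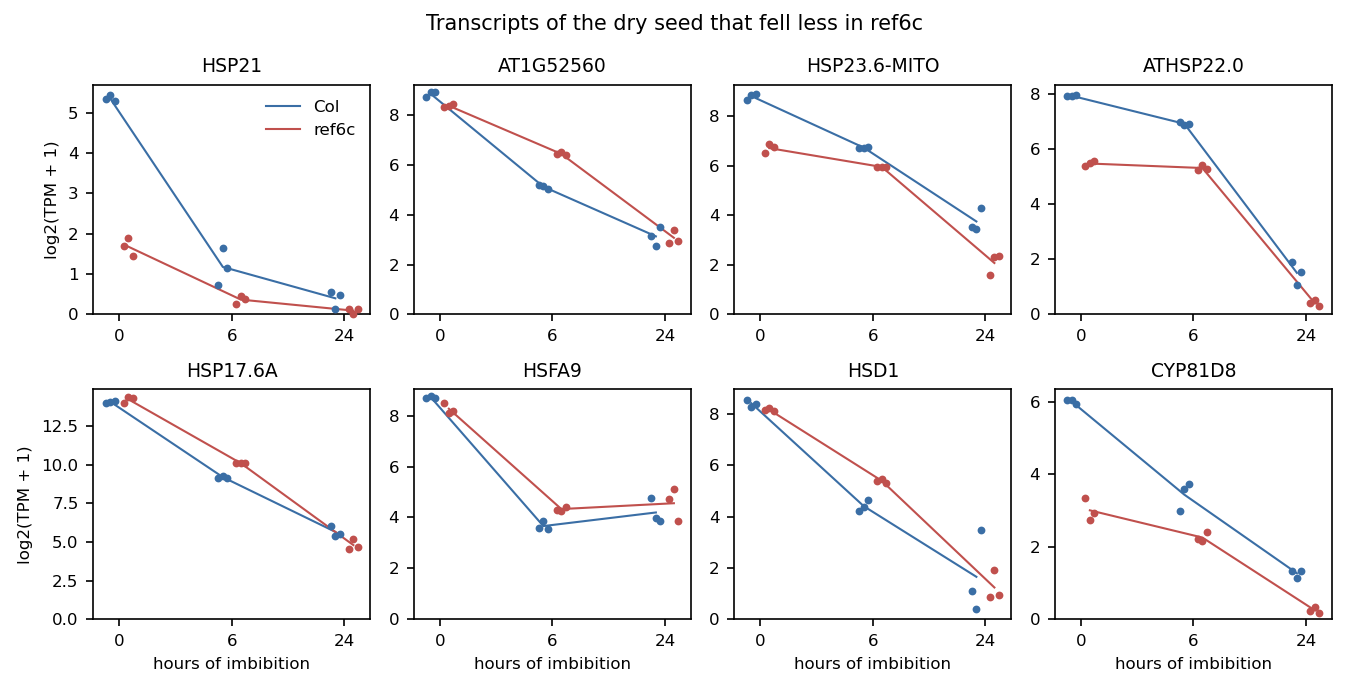
Points are single libraries on log2(TPM + 1) at 0, 6 and 24 h, 3 per genotype and time, with lines through the group means of Col (blue) and ref6c (red). HSP21, HSP23.6-MITO, ATHSP22.0 and CYP81D8 started lower in ref6c at 0 h, while AT1G52560, HSP17.6A, HSFA9 and HSD1 were higher in ref6c at 6 h.

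Of 9 alpha-expansins 5 were called lower on log2(TPM + 1), and of 10 xyloglucan endotransglucosylases 5, but with voom 1 and none. Alpha-expansins loosen the wall so that cells of the embryo and endosperm can expand. None of the 9 was called higher, and their median was -0.72. Of all genes tested 2.81% were called lower and 4.8% higher on log2(TPM + 1). EXPA10 (AT1G26770) read 0.0426, 0.0845 and 0.0809 TPM in Col at 0 h and 341, 276 and 220 TPM at 6 h, against 0 TPM in all 3 libraries of ref6c at 0 h and 60.1, 92.9 and 68.9 TPM at 6 h. It was close to 0 in dry seeds of both genotypes, and Col was above ref6c at 6 h without overlap. Its interaction was -1.81 ± 0.22 (adjusted p = 0.00011), and 0.12 with voom. EXPA1 (AT1G69530) read 0.0885, 0.0877 and 0.294 TPM in Col at 0 h and 91, 69 and 75.9 TPM at 6 h, against 0.0904, 0.169 and 0 TPM in ref6c at 0 h and 21, 24.5 and 19.8 TPM at 6 h. Its interaction was -1.72 ± 0.18 (adjusted p = 2.3e-05), not called with a pseudocount of 0.1. EXPA15 (AT2G03090) read 0.473, 0.426 and 0.367 TPM in Col at 0 h and 38, 35.8 and 38.6 TPM at 6 h, against 0.395, 0.37 and 0.22 TPM in ref6c at 0 h and 10.5, 10.2 and 9.7 TPM at 6 h. The genotypes overlapped at 0 h and Col was above at 6 h, with an interaction of -1.69 ± 0.13 (adjusted p = 1.9e-06), and EXPA15 was the expansin also called with voom. EXPA2, an expansin of germinating endosperm, had -2.13 ± 0.24 (adjusted p = 5.3e-05), and EXP3 -0.72 (adjusted p = 0.0073). EXP3 was not called with voom, with a pseudocount of 0.1 or after median-of-ratios scaling.

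Xyloglucan endotransglucosylases cut and rejoin wall chains. Of 10 tested, 5 were called lower and 1, XTH25, higher, with a median of -0.48. With voom none was called lower and with a pseudocount of 0.1 1 was, XTH15. XTH15 (AT4G14130) read 0, 0 and 0.0555 TPM in Col at 0 h and 5.97, 6.51 and 6.47 TPM at 6 h, against 0 TPM in all 3 libraries of ref6c at 0 h and 1.22, 2.29 and 1.15 TPM at 6 h. It was near 0 at 0 h in both and above ref6c in all Col libraries at 6 h, with an interaction of -1.52 ± 0.19 (adjusted p = 9.9e-05). TCH4, known for its response to touch, had -1.05 ± 0.22 (adjusted p = 0.0081), which was 0.01 with voom. XTH19 had -1.13 ± 0.25 (adjusted p = 0.011), XTH16 -0.75 (adjusted p = 0.011) and XTH5 -0.72 (adjusted p = 0.045). XTH19 reached 1 TPM only in the Col libraries at 6 h. XTH5 was called in 2 of the 12 fits that each left out a library. Endo-beta-mannanases, which weaken the endosperm, had none of 5 called in either direction by limma, voom or with a pseudocount of 0.1.

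The largest lower calls outside the wall lists were in P450s, transport proteins and regulators. CYP71B2 (AT1G13080) read 0.201, 0.159 and 0.191 TPM in Col at 0 h and 22, 18.4 and 20.4 TPM at 6 h, against 0.0411, 0 and 0.123 TPM in ref6c at 0 h and 2.46, 1.3 and 2.54 TPM at 6 h. Col was above at both times, and the interaction was -2.63 ± 0.20 (adjusted p = 1.2e-06). CYP71B19 (AT3G26170) read 0.164, 0.366 and 0.624 TPM in Col at 0 h and 12.1, 9.67 and 11.1 TPM at 6 h, against 0 TPM in all 3 libraries of ref6c at 0 h and 0.742, 0.166 and 0.115 TPM at 6 h. It was listed at 0 in ref6c at 0 h, with an interaction of -2.73 ± 0.22 (adjusted p = 2.6e-06). The CYP71B family as a whole, looked at after the values were seen, had 6 of 17 members called higher and 3 lower. SBP3 (AT3G23800), a selenium-binding protein, read 0.221, 0.25 and 0.27 TPM in Col at 0 h and 8.99, 7.82 and 8.3 TPM at 6 h, against 0.0645, 0.0603 and 0.0646 TPM in ref6c at 0 h and 0.833, 0.81 and 0.663 TPM at 6 h. Its interaction was -2.17 ± 0.12 (adjusted p = 5.7e-08). Of the genes in this group SBP3 was called lower with voom too, while CYP71B2, CYP71B19, ABCB4, BLH3, NAC103 and PRMT1A were not. SBP3, CYP71B19, BLH3 and NAC103 reached 1 TPM only in the Col libraries at 6 h, so the filter set their low level elsewhere. The voom fit used genes that had passed this filter, so the voom call of SBP3 is not independent of it. ABCB4, an auxin transporter, had -2.04 ± 0.16 (adjusted p = 1.3e-06), the homeodomain factor BLH3 -2.13 ± 0.15 (adjusted p = 6.2e-07), the NAC factor NAC103 -1.89 ± 0.13 (adjusted p = 3.7e-07) and the arginine methyltransferase PRMT1A -1.88 ± 0.15 (adjusted p = 2.6e-06). All 4 had means below 1 TPM at 0 h in both genotypes, and all their Col libraries were above ref6c at 6 h.

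Some lower calls were in genes with high levels in Col at 6 h. DGR2 (AT5G25460), a cell wall protein, read 1.41, 1 and 0.9 TPM in Col at 0 h and 1769, 1596 and 1619 TPM at 6 h, against 0.167, 0.25 and 0.201 TPM in ref6c at 0 h and 397, 404 and 391 TPM at 6 h. Col was above at both times, and the interaction was -1.26 ± 0.13 (adjusted p = 2.1e-05), but 0.25 with voom. SAG21 (AT4G02380), a small LEA-type protein, read 5.35, 7.47 and 4.29 TPM in Col at 0 h and 386, 318 and 265 TPM at 6 h, against 1.46, 1.3 and 1.39 TPM in ref6c at 0 h and 31.4, 43 and 34.4 TPM at 6 h. The Col libraries were again above ref6c at both times, with an interaction of -1.65 ± 0.24 (adjusted p = 0.00044). TOM7-2 (AT1G64220), a subunit of the mitochondrial import pore, read 1.57, 1.04 and 0.249 TPM in Col at 0 h and 166, 172 and 128 TPM at 6 h, against 0 TPM in all 3 libraries of ref6c at 0 h and 18.9, 21.2 and 18 TPM at 6 h. It was listed at 0 in ref6c at 0 h, with an interaction of -2.03 ± 0.28 (adjusted p = 0.00032), and 0.14 with a pseudocount of 0.1. None of DGR2, SAG21 and TOM7-2 was called lower with voom. Other abundant genes called lower were VDAC3, RBCS1A and NRT1.8, at -0.37 ± 0.10 (adjusted p = 0.041), -0.47 ± 0.13 (adjusted p = 0.042) and -0.81 ± 0.23 (adjusted p = 0.049), called in 2, 3 and 3 of the 12 fits that each left out a library.

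PIN7 and PIN4, carriers that move auxin out of cells, were called in opposite directions. PIN7 read 3.35, 3.35 and 4.43 TPM in Col and 0.451, 0.532 and 0.195 TPM in ref6c at 6 h, with at most 0.066 TPM in any library at 0 h, and its interaction was -1.73 ± 0.16 (adjusted p = 6e-06). PIN4 was called higher, at 0.80 ± 0.17 (adjusted p = 0.0073). PIN7 reached 1 TPM only in the Col libraries at 6 h, and PIN4 only in the ref6c libraries at 6 h. The filter itself set their low level elsewhere, so the opposite directions are not independent of it. Lipid transfer proteins, chosen after the values were seen, had 4 of 6 called lower and none higher. That stood beside 2.81% and 4.8% of all genes, and the family's median was -0.84. LP1 (AT2G38540), also the epidermis marker that was called, read 0.0843, 0.585 and 0 TPM in Col at 0 h and 8.39, 8.94 and 8.61 TPM at 6 h, against 0.345, 1.37 and 1.04 TPM in ref6c at 0 h and 4.22, 3.42 and 3.19 TPM at 6 h. Its interaction was -1.71 ± 0.28 (adjusted p = 0.0011). LP1, AT5G57570 and PIN4 were also called with voom, and PIN7, AT5G38160 and LCR39 were not. The voom fit used genes that had passed the same filter. AT5G57570, without a symbol, read 10.5, 11.1 and 7.49 TPM in Col and 0.216, 0 and 0 TPM in ref6c at 6 h, and it was listed at 0 in all 3 ref6c libraries at 0 h. Its interaction of -3.08 ± 0.19 (adjusted p = 1.3e-07) was the lowest of all genes tested. AT5G57570 reached 1 TPM only in the Col libraries at 6 h. AT5G38160 was the other kind of lower call: it fell in both, from 16.9, 24.3 and 36.6 TPM in ref6c and 2.54, 2.88 and 2.41 TPM in Col, with an interaction of -2.64 ± 0.28 (adjusted p = 2.9e-05). LCR39, a cysteine-rich peptide, likewise fell in ref6c with no call in Col, at -2.10 ± 0.55 (adjusted p = 0.03). LCR39 was not called with a pseudocount of 0.1 either, and it was called in 5 of the 12 fits that each left out a library.

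**Figure D4:**
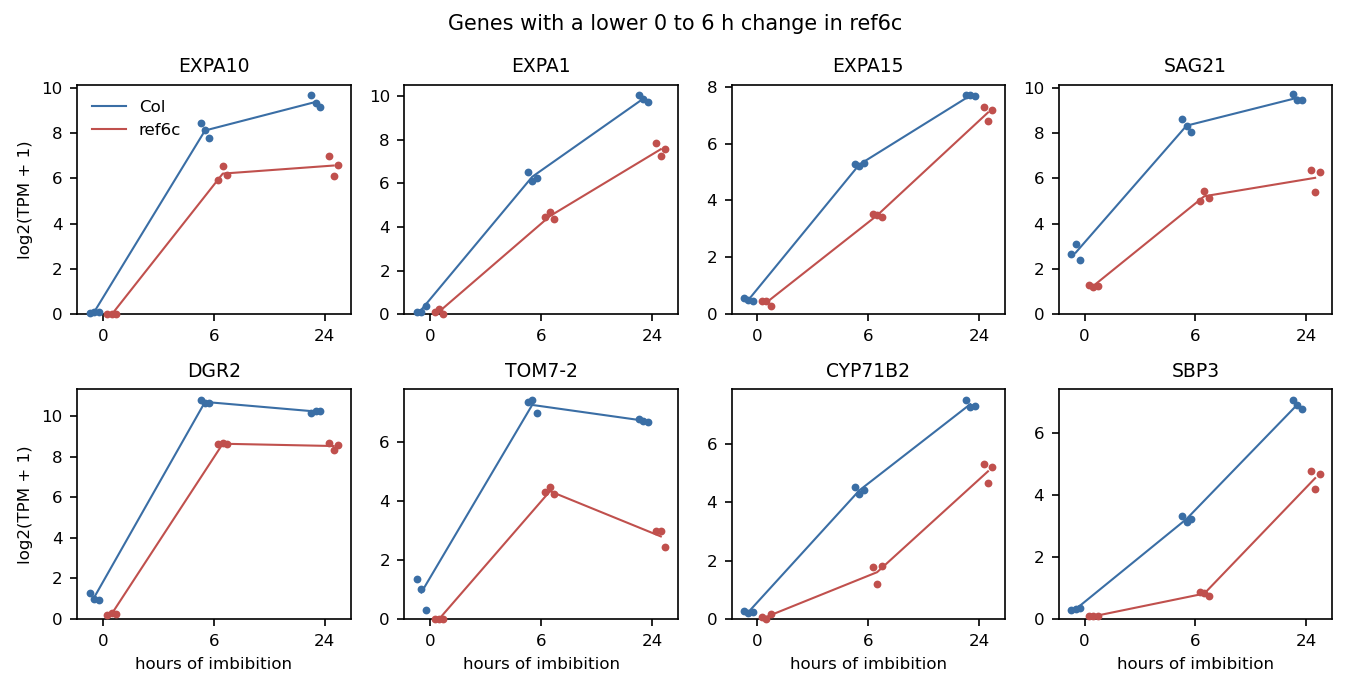
Points are single libraries on log2(TPM + 1) at 0, 6 and 24 h, 3 per genotype and time, with lines through the group means of Col (blue) and ref6c (red). All 8 genes were at or near 0, or lower in ref6c, at 0 h and below Col in every ref6c library at 6 h; the ref6c minus Col difference at 24 h was -3.93 for TOM7-2 and -0.59 for EXPA15.

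At 24 h, in libraries the interaction did not use, 291 of the 446 genes called lower were lower in ref6c (65.2%) and 21 higher, beside 23.2% and 15.6% of all genes tested. The 446 include the 114 genes that entered the test only through Col at 6 h. PIN7, SBP3, CYP71B19, BLH3, NAC103, XTH19 and AT5G57570 were among them. Those were not set apart at 24 h. Of the 79 also called lower with voom, 38 (48.1%) were lower and 10 (12.7%) higher, with a median difference of -0.30. Of those called lower, 272 of the 388 that were lower in ref6c at 6 h were lower again (70.1%), and 9 were higher. Their median ref6c minus Col difference was -0.57, beside -0.02 over all genes. The difference was -3.93 ± 0.16 (adjusted p = 2.9e-08) for TOM7-2, -3.53 ± 0.19 (adjusted p = 1.8e-07) for SAG21, -2.81 ± 0.18 (adjusted p = 6.6e-07) for EXPA10, -2.30 ± 0.14 (adjusted p = 4.8e-07) for CYP71B2 and -2.11 ± 0.12 (adjusted p = 3e-07) for PIN7. EXP3 had -0.82 ± 0.08 (adjusted p = 2.9e-05), and EXPA2 was not called, at -0.15 ± 0.09 (adjusted p = 0.23). LP1 read 109, 54.5 and 60.2 TPM in Col and 74.2, 73.8 and 60.5 TPM in ref6c at 24 h, where the genotypes overlapped.

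GA3OX1 and GA3OX2 rose more in ref6c by 6 h. Gibberellin promotes germination, and GA3OX enzymes make its active forms. Of 9 synthesis genes 2 were called higher and none lower, with a median of 0.06. GA3OX2 (AT1G80340) read 0.0426, 0 and 0 TPM in Col at 0 h and 56.6, 46.1 and 44.6 TPM at 6 h, against 0, 0 and 0.0436 TPM in ref6c at 0 h and 115, 142 and 121 TPM at 6 h. Both genotypes were near 0 at 0 h and every ref6c library was above Col at 6 h, with an interaction of 1.34 ± 0.16 (adjusted p = 6.7e-05). GA3OX1 (AT1G15550) read 0, 0.0407 and 0 TPM in Col at 0 h and 64.6, 65.2 and 55 TPM at 6 h, against 0.0419, 0.0392 and 0 TPM in ref6c at 0 h and 126, 122 and 118 TPM at 6 h. Its interaction was 0.96 ± 0.13 (adjusted p = 0.0003), and neither was called with voom. At 24 h the order was the other way, with -1.77 ± 0.10 (adjusted p = 2.7e-07) for GA3OX2 and -1.55 ± 0.20 (adjusted p = 0.00014) for GA3OX1. RGL2, the DELLA repressor of germination, rose in both, to 167, 169 and 171 TPM in Col and 121, 117 and 124 TPM in ref6c. Its interaction was -0.60 ± 0.17 (adjusted p = 0.038), called in 3 of the 12 fits that each left out a library.

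Calls among abscisic acid genes were all higher, beside 4.8% called higher of all genes tested. They were in 1 of 3 breakdown genes, 2 of 9 synthesis genes and 3 of 9 clade A phosphatases. The hormone abscisic acid holds seeds dormant. CYP707A2, the enzyme that breaks it down in imbibed seeds, read 13.5, 12.9 and 13.8 TPM in Col at 0 h and 27.9, 30.1 and 30.1 TPM at 6 h, against 9.29, 9.78 and 9.52 TPM in ref6c at 0 h and 39.2, 36 and 34.5 TPM at 6 h. Col was above at 0 h and ref6c at 6 h, and the interaction was 0.76 ± 0.12 (adjusted p = 0.0008). Of 9 synthesis genes the dioxygenases NCED2 and NCED6 were called higher, at 0.68 ± 0.20 (adjusted p = 0.048) and 0.66 ± 0.18 (adjusted p = 0.041). Neither was called with voom or after median-of-ratios scaling. Clade A phosphatases had 3 of 9 called higher, HAI3 at 0.88 ± 0.16 (adjusted p = 0.0035), HAI2 at 0.85 ± 0.23 (adjusted p = 0.034) and HAI1 at 0.65 ± 0.18 (adjusted p = 0.044), with a median of 0.29. NCED2, NCED6, HAI2 and HAI1 were called in 2, 3, 2 and 3 of the 12 fits that each left out a library. With voom 2 of the 9 phosphatases were called higher, and with a pseudocount of 0.1 1 was. None of 6 group A bZIP factors and none of 12 dormancy regulators was called by limma, voom or with a pseudocount of 0.1.

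Of 9 genes in the list of phytochromes, PIFs and related light factors 3 were called higher: PIF7 at 1.20 ± 0.17 (adjusted p = 0.00038), PIL6 at 1.04 ± 0.21 (adjusted p = 0.0058) and the bZIP factor HYH at 0.63 ± 0.15 (adjusted p = 0.018). The list's median was 0.35, and 3 were called with voom and 4 with a pseudocount of 0.1, though HYH was not called with voom. PIF7 fell in Col, from 3.49, 3.95 and 2.81 TPM, and had no call in ref6c, where it stood at 0.829, 0.674 and 0.758 TPM at 0 h. Of 13 clock genes PRR5 was called, at 0.64 ± 0.13 (adjusted p = 0.0079). In the hypoxia list 1 of 8 was called lower, AT5G15120, annotated as a 2-aminoethanethiol dioxygenase. AT5G15120 read 8.08, 8.2 and 10.5 TPM in Col at 0 h and 149, 112 and 112 TPM at 6 h, against 19.7, 18.8 and 21.8 TPM in ref6c at 0 h and 135, 142 and 137 TPM at 6 h. It was above Col in ref6c at 0 h and overlapped at 6 h, with an interaction of -0.93 ± 0.17 (adjusted p = 0.003). Of 12 Polycomb components CLF, a writer of H3K27me3, was called lower at -0.50 ± 0.14 (adjusted p = 0.043), in 3 of the 12 fits that each left out a library, and of 7 jasmonate genes JAZ6 was called higher at 0.65 ± 0.19 (adjusted p = 0.049), also in 3.

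Large parts of the germination programme gave no interaction call. None was called among 18 genes of reserve oil mobilisation, 11 of DNA replication, 6 FLC and MAF repressors and 5 H3K27 demethylases, by limma, voom or with a pseudocount of 0.1. None of 18 nucleolar genes was called by limma, and 1 was called higher by voom and with a pseudocount of 0.1. Their medians were 0.13, -0.20, 0.06, 0.02 and 0.06 in that order. The nucleolar genes had a median step of 4.19 in Col and 4.26 in ref6c. ICL, MLS, PCK1 and SDP1 of the oil list and REF6 were each called in 1 of the 12 fits that left out a library. Of the 18 oil genes 15 had an interaction above 0, beside 9911 of all 15873. Their summed level overlapped between genotypes at 0 h. At 6 h it was 17072 to 18966 TPM in Col and 22257 to 23016 TPM in ref6c, higher in ref6c without overlap.

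**Figure D5:**
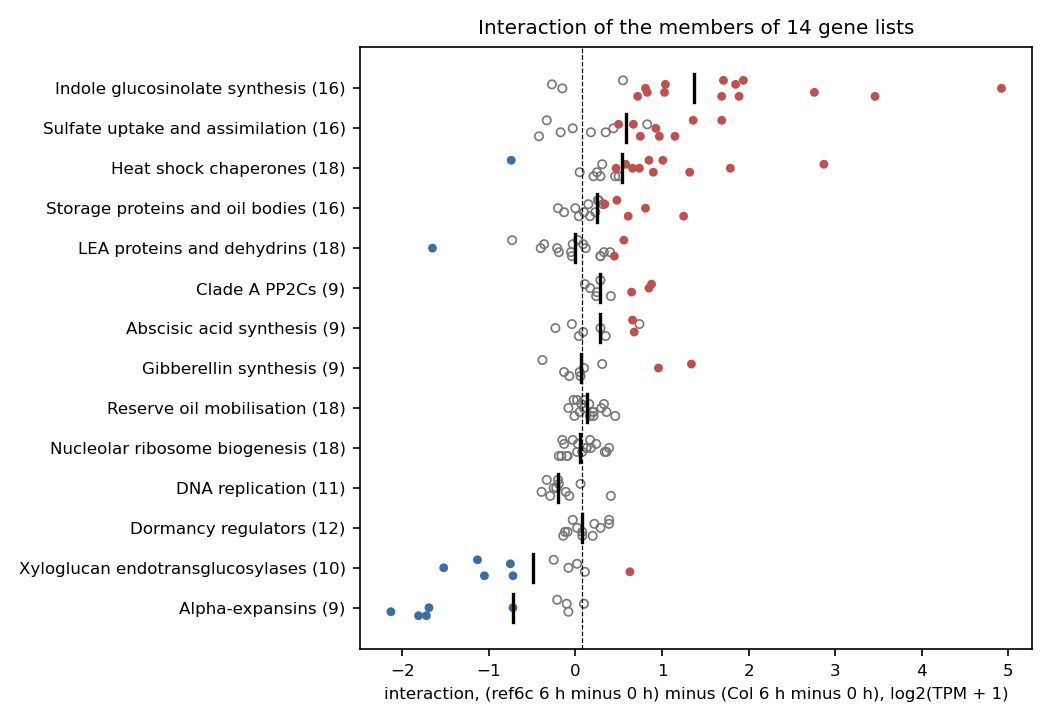
Each circle is a tested member of a list, placed by its interaction on log2(TPM + 1); filled circles were called (red higher, blue lower), open circles were not, black bars are list medians and the dashed line is the median of all genes. Indole glucosinolate synthesis has its median at 1.37 with 13 of 16 members filled, and alpha-expansins have theirs at -0.72 with 5 of 9 filled.

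Some called genes were neighbours. Of 757 genes called higher with a position in the reference, 109 (14.4%) had a gene called higher as the next tested gene on either side, beside 9.34% of all tested genes. Of 446 called lower, 54 (12.1%) had one called lower beside them, against 5.56% of all. The 2 longest runs of genes called higher had 4 members each, IGMT1, IGMT3, IGMT2 and IGMT4 on chromosome 1 and the Berberine-family genes AT1G26380 to AT1G26420. A run of 3 on chromosome 5 held ERF2, with an interaction of 1.27 (adjusted p = 0.00085), ERF5, with 1.05 (adjusted p = 0.00086), and NUDT8, with 0.62 (adjusted p = 0.018). The median gene span was 1858 bases for genes called higher, 2210 for those called lower and 2453 for all tested.

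Motifs were counted in the 250 bases before the gene start, on both strands, as a description of sequence only. The REF6 zinc-finger motif (CTCTGCTC, CTCTGCTT, CTCTGTTC or CTCTGTTT) was in 4.49% of genes called higher, 6.73% of those called lower and 5.39% of all. The abscisic acid response core ACGTG was in 29.5% of genes called higher, 25.8% of those called lower and 3696 of all 15728 with a reference sequence. A palindromic CACGTG holds the core on both strands. The core was in 11 of 16 indole glucosinolate genes and in 6 of 9 clade A phosphatase genes. The heat shock element core was in 10.8%, 7.85% and 9.19%, and in 4 of 18 chaperone genes. The evening element AAATATCT was in 5.94%, 6.5% and 4.8%. The telo box AAACCCTA was in 2.25%, 7.17% and 3.89%, and the site II element TGGGCC or TGGGCT in 16.1%, 18.4% and 25%. Chaperone genes held the site II element in 12 of 18. The W box TTGACC or TTGACT, added after the data were seen, was in 35%, 27.6% and 27.7%.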

How the data were processed

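RNA-seq of imbibed Arabidopsis seeds gave 1 library per sample, 24 in 8 groups, of which 12 enter the interaction. The deposited values are TPM, scaled by the authors for gene length and library total, per the file headers. Tools listed, per the submitters' processing notes and without their roles, are HISAT2 2.1.10, fastp 0.20.1 and DESeq2 1.26.0, with TAIR10 as the build. The read counter and its strand setting are not given in the sources used here, so overlapping and antisense genes cannot be told apart. From the TPM values log2(TPM + 1) was computed, genes with at least 1 TPM in 3 or more of the 12 libraries were kept, and 4 group means were fitted with limma 3.58.1 in R 4.3.3 (intensity trend, 8 residual degrees of freedom, two-sided, Benjamini-Hochberg over all genes tested, call at an adjusted p under 0.05). Every ± is an SE from this fit unless marked SD, and every adjusted p is limma's. The 24 h comparison is a separate fit of the 24 and 48 h libraries, added after the 0 and 6 h values were seen. Reads were recovered from the TPM steps, with 462205 of 462321 values whole within 0.001 of a read, and used for the voom alternative. The fits were tested on simulated data.

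Genes named are REF6 and ELF6; among called genes with a symbol and a mean of 5 TPM or more in a group, the 12 largest interactions and the 4 most abundant genes in each direction and the 3 largest of each pattern with at least 10 genes; and up to 4 members of each of 30 lists with the smallest adjusted p. Other genes named, those without a symbol among them, were chosen after their values were seen. The members and lists were chosen with earlier results of these data known. Symbols, positions and upstream bases are from RefSeq annotation of TAIR10.1.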

Additional observations from a re-analysis of the deposited data

Results flagged for a closer look

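A difference between genotypes in the direction of the 0 to 6 h change was met by 39 genes that fell in Col and rose in ref6c and by 3 that rose in Col and fell in ref6c. In each the interaction itself tested the difference. Those named in the text were IGMT1 at 1.94, IGMT2 at 3.46, IGMT4 at 4.92, GGP1 at 1.71, CYP71B3 at 2.59, AT1G26380 at 3.52, AT1G55450 at 4.28, ERF2 at 1.27, ERF5 at 1.05 and, in the other direction, RHL41 at -1.06, all on log2(TPM + 1). The directions depend on the scale, which did not shift all steps alike. For CYP71B3 median-of-ratios scaling moved the Col step from -1.87 to -3.49 and the ref6c step from 0.72 to -0.00. The interaction of CYP71B3 moved from 2.59 to 3.49. After median-of-ratios scaling 6 of the 39 and none of the 3 kept opposite directions, IGMT1, IGMT2, IGMT4, AT1G26380 and AT1G55450 among the 6. There GGP1, ERF2 and RHL41 fell in both genotypes, and CYP71B3 and ERF5 fell in Col with no call in ref6c. The interaction was still called in the same direction for 34 of the 39 and for all 3. With 3 libraries a group, single libraries were not tested as outliers.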

How the results depend on the processing

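The interaction was called for 794 genes with a 5 TPM filter (218 lower), 689 with a pseudocount of 0.1 (143 lower), 703 with voom on recovered reads (89 lower), 328 with a fold minimum of 2 (207 higher, 121 lower) and 6252 with library quality weights (4689 higher, 1563 lower), where 1 library of ref6c at 0 h took a weight of 39.6. Median-of-ratios scaling gave 492 higher and 356 lower. Among them were 443 of the 762 higher calls and 251 of the 446 lower calls. Leaving out 1 library at a time gave 792 to 3307 calls, 492 to 2664 higher and 236 to 643 lower, the highest each time without ref6c 0 h replicate 1. The genotype difference at 0 h had 2518 calls with all 24 libraries, 8501 with quality weights, 258 with the fold minimum and 857 to 5849 with 1 library left out, and that at 6 h had 4974 with quality weights, 1466 with a pseudocount of 0.1 and 389 with the fold minimum. The sign turned with a pseudocount of 0.1 for REF6 (0.23), IGMT5 (0.56) and TOM7-2 (0.14), and with voom for REF6 (0.47), IGMT5 (1.37), EXPA10 (0.12), TCH4 (0.01) and DGR2 (0.25). The cause was not tested. Of 114 named genes, 78 kept direction and call with voom, 85 with a pseudocount of 0.1 and 93 with median-of-ratios scaling. A replicate block gave 1062 calls (673 higher, 389 lower). Libraries with the same number correlated at -0.265 to 0.415 over 18 pairs, 4 of them over 0.1. The highest was between replicate 1 of Col and of ref6c at 0 h. With 3 libraries a group this cannot tell whether a number marks a shared batch. For genes near 0 TPM at 0 h the fold from 0 h is poorly measured at this depth.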
